A study of Neotoma stephensi and Rattus norvegicus with 6 samples.

Results

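Cytokines, chemokines and their receptors were followed as 1 set of genes in the foregut of woodrats and lab rats. The genes were chosen by symbol alone: symbols that start with Ccl, Cxcl, Ccr or Cxcr, with Il and a digit, or with Tnfsf, Tnfrsf, Ifnar or Ifngr. Such symbols were borne by 111 of the 15481 genes deposited. One of these, Ccrn4l, is a deadenylase-related gene that is neither cytokine nor receptor and was left out, so 110 members remained. The atypical receptor Ccrl2 was kept.

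Tissue came from the fornix ventricularis, in the nonglandular part of the stomach, of 3 Stephens' woodrats (Neotoma stephensi) and 3 Sprague Dawley lab rats (Rattus norvegicus), all female. The woodrats were caught in the wild and fed juniper foliage until dissection. The lab rats came from a commercial breeder, ate standard chow and were housed for months in a room that also held woodrats in other cages. The woodrat foregut holds a dense fermenting microbial community and that of the lab rat does not, and the study asked how foregut gene expression differs between such animals. Species, diet, origin, housing and microbial community changed together, so their parts in any difference cannot be told apart. Reads were counted on mouse transcripts, from which woodrat reads diverged more than lab rat reads, and that part cannot be told apart either. The labels call all 6 animals virgin, whereas by the study's methods this was known for the lab rats only. An age is not given in the sources used here.

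Cytokines are secreted or membrane-bound proteins through which cells of a tissue signal to each other. Chemokines are the subset that guides leukocyte migration through G protein-coupled receptors. Interleukins and interferons act through receptors built of a ligand-specific chain and, often, a shared partner chain, and TNF superfamily ligands act through receptors that cluster into trimers. In a stratified squamous epithelium such as that of the rodent foregut, keratinocytes make cytokines of the IL-1 family and chemokines such as Ccl20, and carry receptors for the IL-17 and IL-20 families, while leukocytes in the mucosa carry most chemokine receptors and the receptors for lymphoid interleukins. From such textbook knowledge each member was put in 1 of 4 classes by its usual source. There were 23 epithelial-type genes, 45 leukocyte-type genes, 14 stromal or endothelial genes and 28 broadly expressed genes. The classes describe the usual source of a transcript and not the cells that made it in these samples.

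Between 5439642 and 7932637 reads were counted per animal. A floor of 3 counts corresponded to between 0.355 and 0.585 CPM (read counts scaled to a common library size after TMM normalization) in the 6 libraries, and any value under it was not detectable with confidence at this depth. This floor covers counting error only. Of the 110 members, 60 had at least 1 CPM in at least 3 animals and were tested, and 50 were below this filter. By class, 16 epithelial-type, 17 leukocyte-type, 7 stromal or endothelial and 20 broad genes were tested. The files list no gene without woodrat reads, against 809 genes without lab rat reads, so a cytokine gene read in lab rats alone could not be seen here.

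At a false discovery rate (FDR, from edgeR's quasi-likelihood test with Benjamini-Hochberg adjustment over all genes tested) below 0.01, 21 of the 60 tested members differed between the species, where 20.0% of all 12603 tested genes did. Of these, 16 were more abundant in lab rats and 5 in woodrats, against 9.71% and 10.3% of all tested genes. Over the tested members the median log2 fold change of woodrats over lab rats was -0.76, against 0.03 over all tested genes, and 41 members were negative and 19 positive. The CPM of the 3 woodrats and the 3 lab rats did not overlap for 35 of the 60, where 56.2% of all tested genes did not overlap. Genes that pass the filter in only one species are favoured to differ, and 9 of the 60 passed through 1 species only (8 through lab rats, and Il12rb2 through woodrats). Among the 51 that passed in both species, 14 were called, 10 of them higher in lab rats (19.6%) and 4 in woodrats (7.84%). Of all 11907 genes that passed in both, 2004 were called, 7.94% higher in lab rats and 8.89% in woodrats. The members called numbered 9 without woodrat 2, 11 without lab rat 1 and 13 without lab rat 2 or without lab rat 3. They numbered 24 and 22 without woodrats 1 and 3. Over all tested genes the share called in these fits was 7.13%, 7.43%, 8.33%, 10.4%, 14.9% and 20.8%.

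**Figure D1:**
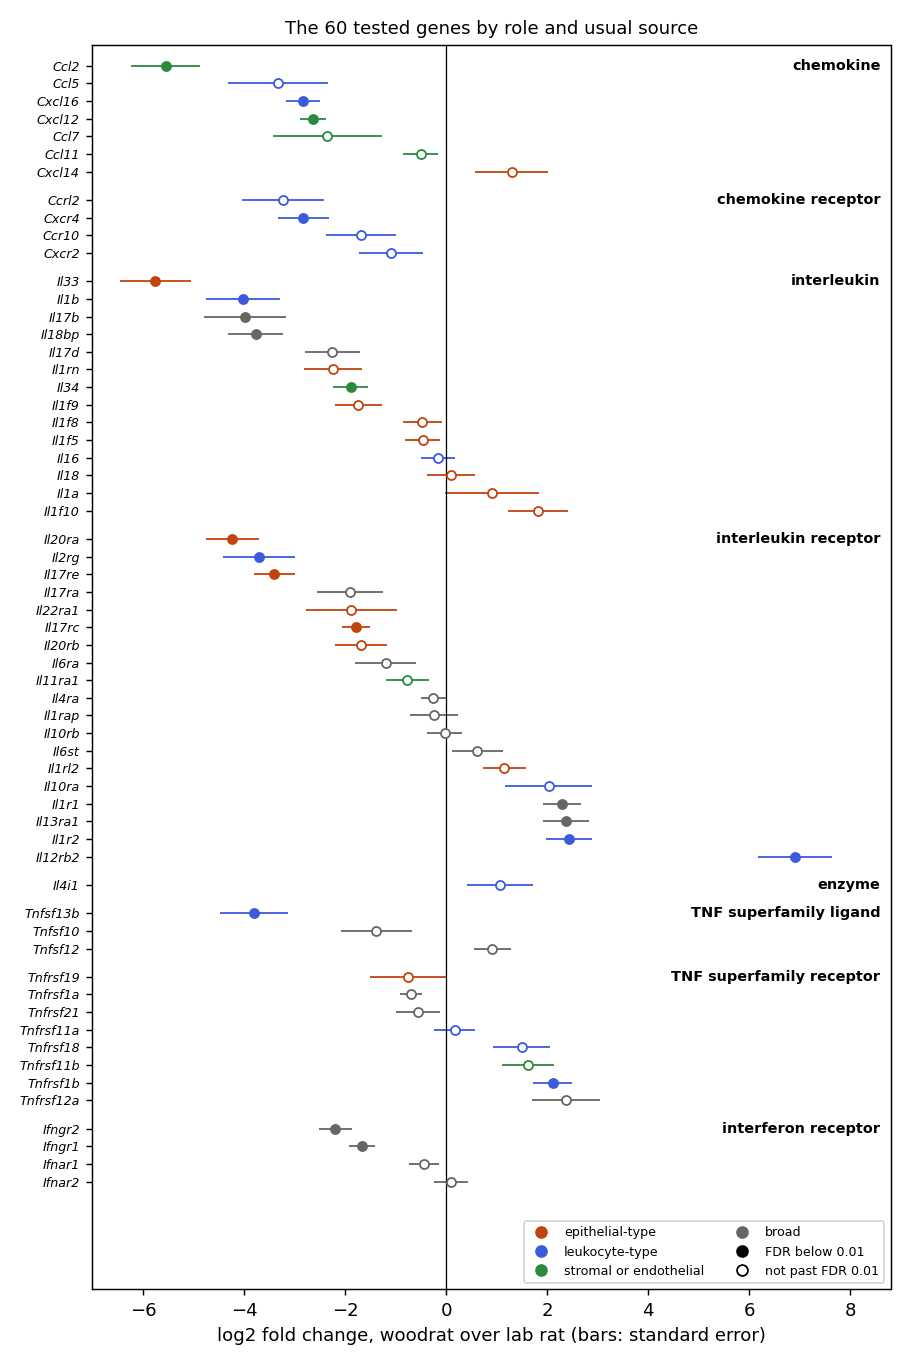
Log2 fold change of woodrats over lab rats for the 60 tested members, ordered by role and by size within a role, with bars for the standard error. Colours give the usual source and filled points passed FDR 0.01. Of the filled points, 16 lie left of 0 and 5 right of it.

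By class, 4 of 16 epithelial-type genes (25.0%) and 3 of 7 stromal or endothelial genes (42.9%) passed, all higher in lab rats. Of 17 leukocyte-type genes 8 passed (47.1%), 5 higher in lab rats and 3 in woodrats. Of 20 broad genes 6 passed (30.0%), 4 higher in lab rats and 2 in woodrats. Among all tested genes 20.0% passed, 9.71% higher in lab rats and 10.3% in woodrats. These shares include genes that passed the filter in 1 species only. Of 11 leukocyte-type genes that passed it in both species, 4 were called, 2 higher in each species. The epithelial-type, stromal or endothelial and broad classes then had 3 of 15, 2 of 6 and 5 of 19 called. Of all genes that passed in both species, 16.8% were called. Markers of leukocytes in general were also lower in woodrats, with a summed CPM between 4.68 and 6.39 against 69.5 to 93.2 in lab rats. In bulk tissue, fewer cells of a type and less RNA per cell cannot be told apart. The median log2 fold change was -1.22 in the epithelial-type, -1.09 in the leukocyte-type, -1.89 in the stromal or endothelial and -0.49 in the broad class. By role, 7 chemokines, 4 chemokine receptors and 14 interleukins (with their antagonists and binding proteins) were tested. Of these, 3, 1 and 5 passed (42.9%, 25.0% and 35.7%), all higher in lab rats. Some of these genes passed the filter through lab rats only, which favours such a call. Among those that passed it in both species, 2 of 5, 0 of 2 and 2 of 11 (18.2%) were called. The 19 tested interleukin receptors were the one role that split evenly, with 4 higher in each species (21.1% each).

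Among the ligands that epithelial cells usually make, Il33 differed most. It encodes a nuclear alarmin of the IL-1 family that barrier cells release on injury. Il33 had 0, 0.139 and 0.828 CPM in woodrats 1, 2 and 3 and 29.0, 18.3 and 15.4 CPM in lab rats 1, 2 and 3. These values rest on 0, 1 and 7 woodrat reads and 234, 111 and 80 lab rat reads, so Il33 was below the floor in 2 woodrats and far above it in every lab rat. The log2 fold change was -5.76 ± 0.70 (SE, FDR 0.000965).

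The other epithelial-type IL-1 family genes did not pass FDR 0.01. Il1rn, the IL-1 receptor antagonist, had 2.54, 9.43 and 19.4 CPM in the woodrats and 57.6, 50.1 and 41.9 CPM in the lab rats. The species did not overlap, yet the woodrats spread widely, and the log2 fold change of -2.23 ± 0.57 had an FDR of 0.0162. Without woodrat 1 or woodrat 3 its FDR was 0.00925 or 0.00285. Il1f9 (IL-36 gamma, a keratinocyte alarmin) gave -1.74 ± 0.46 with an FDR of 0.0186, again without overlap, with 3.71, 6.79 and 6.86 CPM in woodrats against 31.9, 15.9 and 10.6 CPM in lab rats. Il1f10 (IL-38), a member of the family described as an antagonist, lay the other way, at 1.82 ± 0.60 with an FDR of 0.0404. Its CPM was 5.46, 5.27 and 7.81 in woodrats and 1.49, 3.30 and 0.385 in lab rats.

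The most-read epithelial-type ligands overlapped between species. Il1f5, the IL-36 receptor antagonist, had 73.0, 74.2 and 155 CPM in woodrats and 173, 115 and 128 CPM in lab rats, with a log2 fold change of -0.46 and an FDR of 0.313. Il18, which is stored as a precursor in epithelial cells, had 25.8, 45.5 and 86.9 CPM in woodrats and 65.1, 25.6 and 57.0 CPM in lab rats (log2 fold change 0.10, FDR 0.882). Il1f8 (IL-36 beta) gave -0.47 with an FDR of 0.368. Il1a gave 0.91 with an FDR of 0.456, and its sign rested on woodrat 3. The chemokine Cxcl14, made by squamous epithelium, had 9.37, 30.1 and 103 CPM in woodrats and 12.9, 18.2 and 27.1 CPM in lab rats. Its log2 fold change of 1.30 (FDR 0.181) was 0.04 without woodrat 3.

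**Figure D2:**
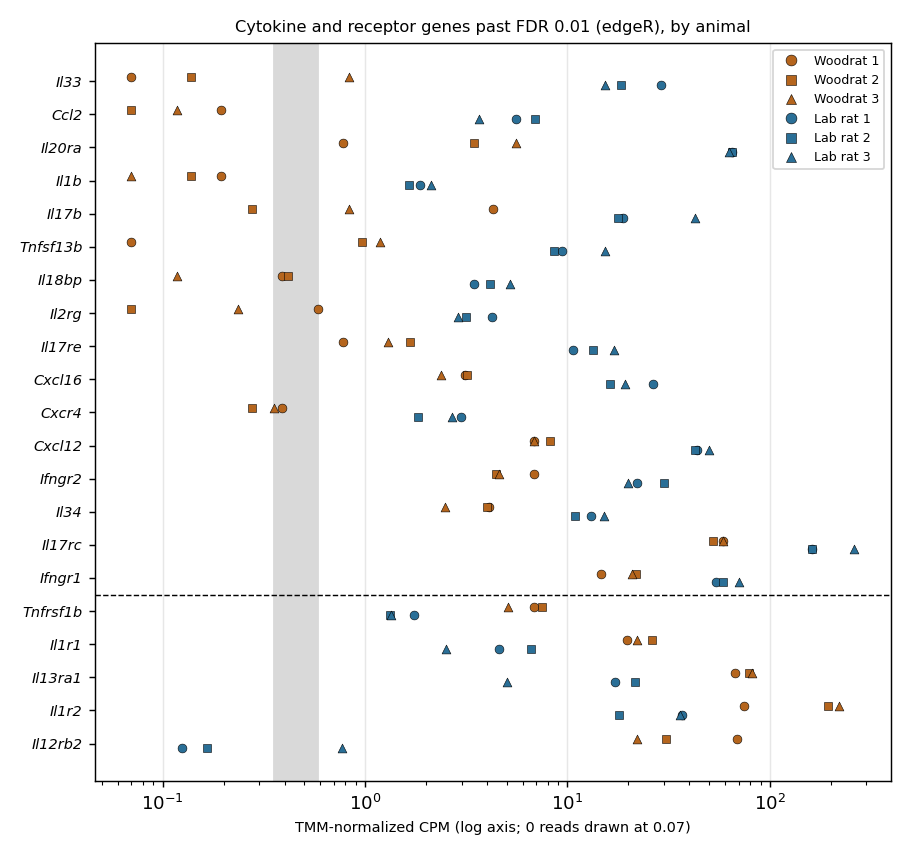
TMM-normalized CPM of each animal, on a log axis, for the 21 members past FDR 0.01, with 1 point per animal. The grey band is the range of the floor of 3 counts, 0.355 to 0.585 CPM, and the woodrats of Il33, Ccl2 and Il1b lie at or below it in all but 1 case.

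Of the 6 tested interleukin receptors of the epithelial class, 3 passed, Il20ra, Il17rc and Il17re, each lower in woodrats. The IL-36 receptor chain Il1rl2 lay the other way without passing (log2 fold change 1.15, FDR 0.0602). Il20ra encodes the ligand-specific chain of the receptor for IL-19, IL-20 and IL-24, cytokines that act on keratinocytes. Il20ra had 0.78, 3.47 and 5.56 CPM in the woodrats and 65.0, 64.9 and 62.7 CPM in the lab rats (log2 fold change -4.23 ± 0.52, FDR 0.000996). The lab rats were close to one another, and all 3 lay far above the highest woodrat. Il20rb, the partner chain, had 5.66, 25.2 and 32.1 CPM in woodrats and 80.0, 63.0 and 61.8 CPM in lab rats, which did not overlap but gave an FDR of 0.0311 (log2 fold change -1.69 ± 0.52). Il22ra1, which pairs with Il20rb or Il10rb, gave -1.88 with an FDR of 0.129 and overlapped. Of the ligands of these receptors, Il19 was in the files with 1 read in 1 woodrat.

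The IL-17 receptors showed the same direction. Il17rc, a chain of the receptor for IL-17A and IL-17F and the member with the highest mean CPM over the 6 animals, though not within the woodrats, had 58.9, 52.4 and 58.6 CPM in woodrats and 162, 162 and 261 CPM in lab rats. The mean was 56.6 ± 3.66 CPM (SD, n = 3) in woodrats and 195 ± 57.3 CPM in lab rats, with a log2 fold change of -1.79 ± 0.27 (FDR 0.00211). Il17re, the receptor chain for the epithelial cytokine IL-17C, had 0.78, 1.66 and 1.30 CPM in woodrats and 10.7, 13.4 and 16.9 CPM in the lab rats (log2 fold change -3.40 ± 0.40, FDR 0.000876). Neither gene overlapped between species. The shared chain Il17ra had 0.976, 2.63 and 8.99 CPM in woodrats and 21.6, 16.0 and 11.0 CPM in lab rats, and its log2 fold change of -1.90 ± 0.66 had an FDR of 0.0477. Without woodrat 3, whose value was nearest the lab rats, that FDR was 0.00304. Without woodrat 2, Il17rc had an FDR of 0.0137.

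Of the ligands of this family, Il17b and Il17d, which are made outside lymphoid cells, were read in all animals. Il17b had 4.29, 0.277 and 0.828 CPM in woodrats and 18.7, 17.7 and 42.9 CPM in lab rats (log2 fold change -3.98 ± 0.81, FDR 0.00615). It did not overlap, but woodrat 1 and lab rat 3 each stood above their group, and the FDR was between 0.0114 and 0.0271 without woodrat 2 or 3 or any of the 3 lab rats. Il17d, the member nearest to the threshold from outside, gave -2.25 ± 0.54 with an FDR of 0.0123. Il17c, the ligand of Il17re, had 3 reads in woodrat 3 and none elsewhere, and Il25, another ligand of the family, had at most 2 reads in any animal.

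Within each animal the reads of a receptor chain can be divided by those of its partner, which removes depth and scaling but not transcript length. The Il20ra to Il20rb ratio was 0.138, 0.137 and 0.173 in woodrats and 0.812, 1.03 and 1.02 in lab rats. The ratio was thus narrow within each species although Il20rb itself varied over several-fold in the woodrats. The Il13ra1 to Il4ra ratio was 1.46, 2.33 and 2.63 in woodrats and 0.423, 0.451 and 0.115 in lab rats. The Il1r1 to Il1rap ratio was 8.42, 3.38 and 2.43 in woodrats against 0.552, 0.769 and 0.419 in lab rats. In all, 11 pairs of chains were compared by an exact two-sided permutation test, 7 of which did not overlap. Each of these 7 gave an exact permutation p = 0.1, the smallest that 3 animals against 3 allow, and 0.157 after Benjamini-Hochberg adjustment over the 11. The ratios of Il17rc to Il17ra (exact p = 0.7), Il17re to Il17ra (exact p = 0.4), Ifngr1 to Ifngr2 (exact p = 0.3) and Il10ra to Il10rb (exact p = 0.4) overlapped.

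**Figure D3:**
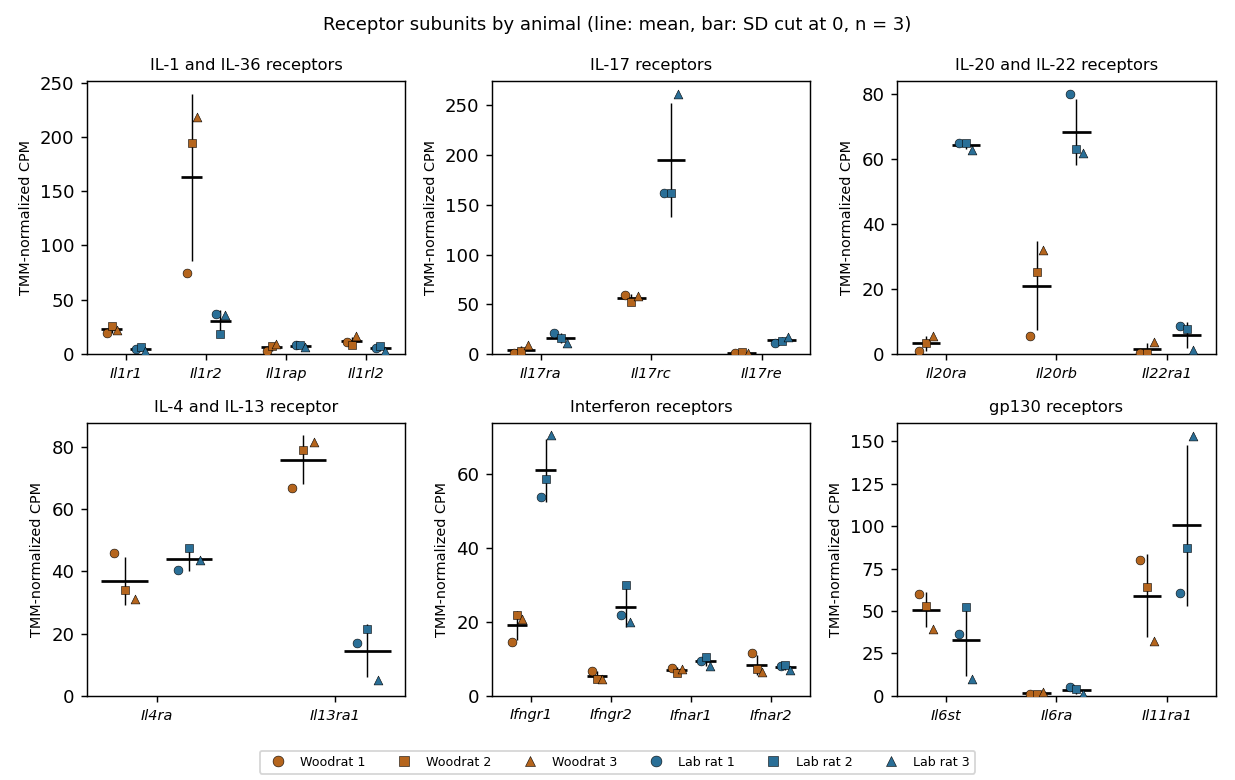
TMM-normalized CPM of receptor chains by animal, grouped by receptor family, with the mean as a line and the SD of 3 animals as a bar. Il20ra, Il17rc, Il17re, Ifngr1 and Ifngr2 are higher in lab rats, and Il13ra1, Il1r1 and Il1r2 in woodrats. Il4ra and the type I interferon receptor chains lie close together, while Il1rap overlaps between species but spreads widely among the woodrats.

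Higher in woodrats were 3 receptor genes of the IL-1 and IL-13 systems. Il1r2 encodes a decoy receptor that binds IL-1 without signalling and is usual in myeloid and B cells, though keratinocytes also make it. Il1r2 had 74.9, 195 and 219 CPM in the woodrats and 36.9, 18 and 35.8 CPM in the lab rats (log2 fold change 2.43 ± 0.45, FDR 0.00447). Il1r1, the signalling receptor for IL-1, had 19.7, 26.2 and 22.1 CPM in woodrats and 4.59, 6.61 and 2.50 CPM in lab rats (2.30 ± 0.38, FDR 0.00284). Il13ra1, the IL-13-binding chain that pairs with Il4ra, had 66.9, 79.0 and 81.8 CPM against 17.1, 21.5 and 5 CPM (2.38 ± 0.46, FDR 0.00507). No woodrat overlapped a lab rat for any of them. Their FDR was above 0.01 without woodrat 2 (0.0183, 0.0135 and 0.0185) and without lab rat 1 (0.0137, 0.0137 and 0.0161), and that of Il1r2 also without lab rat 2 (0.0174) or lab rat 3 (0.0209).

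Their partner chains did not pass. Il1rap, the accessory chain of IL-1, IL-33 and IL-36 receptors, had a log2 fold change of -0.23 (FDR 0.723), and Il4ra, shared by IL-4 and IL-13, one of -0.25 (FDR 0.435). Il4ra had 45.9, 34.0 and 31.1 CPM in woodrats and 40.4, 47.6 and 43.7 CPM in lab rats, which overlapped. For Il1rl2 (1.15 ± 0.43), which also pairs with Il1rap, the 3 woodrats lay above the 3 lab rats. Of the ligands of these receptors, Il1b, the inflammatory IL-1 of myeloid cells, had 1, 1 and 0 woodrat reads and 15, 10 and 11 lab rat reads. Its CPM was 1.86, 1.65 and 2.12 in lab rats and below the floor in every woodrat, with a log2 fold change of -4.02 ± 0.72 (FDR 0.00388). The pooled reads, over TMM-scaled library sizes, were 19.4-fold higher in lab rats, with a 95% counting interval from 4.99 to 166. Such intervals cover counting error only, not the spread between animals. The FDR of Il1b was 0.0163 without woodrat 2 and between 0.0126 and 0.0151 without any 1 lab rat.

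The largest change of any member was that of Il12rb2, the signalling chain of the IL-12 receptor, which is known from T and natural killer cells. Woodrats 1, 2 and 3 held 354, 222 and 186 reads of Il12rb2, and lab rats 1, 2 and 3 held 1, 1 and 4. In CPM these were 69.1, 30.8 and 22.0 against 0.124, 0.165 and 0.77, so only lab rat 3 exceeded its floor. The log2 fold change was 6.91 ± 0.73 (FDR 0.00063), and it stayed between 6.30 and 7.98 when each animal was left out in turn. The partner chain Il12rb1 had 2, 0 and 0 woodrat reads and 1, 0 and 1 lab rat reads, under the floor in all 6. No read of Il12rb2 can be tied to a cell type here, and other T cell genes were at or under 3 reads in woodrats: Cd3d, Cd3e, Cd3g, Cd2 and Trac had between 0 and 3 reads in any woodrat. Smooth muscle genes were highest in woodrat 1, as was Il12rb2, and the part of this in the result was not tested.

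Of the 13 leukocyte-type interleukin receptors, 9 were below the filter. Il2rg, the common gamma chain shared by receptors for several lymphoid interleukins, had 0.585, 0 and 0.237 CPM in woodrats and 4.21, 3.14 and 2.89 CPM in lab rats (-3.70 ± 0.72, FDR 0.00509). The FDR was between 0.0112 and 0.02 when woodrat 2, woodrat 3 or any lab rat was left out. Il10ra, the IL-10-binding chain, had 3.71, 8.18 and 49.3 CPM in woodrats and 6.45, 5.95 and 2.50 CPM in lab rats. Woodrat 3 stood far above the rest and the species overlapped (log2 fold change 2.03 ± 0.87, FDR 0.0924), and without it the log2 fold change was 0.26. Il10rb, its broadly expressed partner, had a log2 fold change of -0.03.

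Receptors that signal through the shared chain gp130 did not differ at FDR 0.01. Il6st, which encodes gp130, had 60.1, 52.8 and 39.5 CPM in woodrats and 36.3, 52.4 and 10 CPM in lab rats (0.62 ± 0.50, FDR 0.349). Il11ra1 gave -0.77 (FDR 0.179) and Il6ra -1.20 (FDR 0.145), both with overlap. Il11 had at most 3 reads in any animal.

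Both chains of the interferon gamma receptor were lower in woodrats. Ifngr1, the ligand-binding chain, had 14.6, 21.9 and 20.8 CPM in woodrats and 53.9, 58.7 and 70.6 CPM in the lab rats (log2 fold change -1.67 ± 0.26, FDR 0.00221). Ifngr2, the signalling chain, had 6.83, 4.44 and 4.61 CPM in woodrats and 21.9, 30.1 and 20.0 CPM in lab rats (-2.19 ± 0.32, FDR 0.00184). Neither gene overlapped between species, and Ifngr2 had an FDR of 0.011 without woodrat 2. The type I interferon receptor chains gave -0.44 ± 0.30 for Ifnar1 (FDR 0.267) and 0.10 ± 0.34 for Ifnar2 (FDR 0.826). Ifnar1 had 7.41, 6.10 and 7.34 CPM in woodrats and 9.55, 10.6 and 8.08 CPM in lab rats, and that small step did not pass.

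Among the chemokines, Ccl2, Cxcl16 and Cxcl12 were lower in woodrats. Ccl2 (MCP-1) attracts monocytes. There were 1, 0 and 1 woodrat reads and 45, 42 and 19 lab rat reads of it, or 5.58, 6.94 and 3.66 CPM in the latter and values below the floor in the former. The log2 fold change was -5.55 ± 0.69 (FDR 0.00101), and the pooled reads were 57.0-fold higher on the same scale in lab rats (95% counting interval 15.4 to 477). Cxcl12, the stromal ligand of Cxcr4 that retains leukocytes and progenitors in tissue, had 6.83, 8.18 and 6.86 CPM in woodrats and 43.5, 42.6 and 50.2 CPM in lab rats. Both groups were tight, at 7.29 ± 0.771 and 45.5 ± 4.15 CPM (SD, n = 3), and its log2 fold change of -2.64 ± 0.25 had the lowest FDR of any member, 0.000431.

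Cxcl16, a membrane-bound chemokine of macrophages and dendritic cells, had 3.12, 3.19 and 2.37 CPM in woodrats and 26.4, 16.2 and 19.2 CPM in lab rats (-2.84 ± 0.34, FDR 0.000876). The species were well apart. Its receptor Cxcr6 had 1, 1 and 0 woodrat reads and 8, 6 and 3 lab rat reads and was not tested. The eosinophil chemokine Ccl11 was read at similar levels, with 7.61, 18.2 and 11.4 CPM in woodrats and 19.0, 18.7 and 15.2 CPM in lab rats (-0.50, FDR 0.283). Ccl5, a T cell chemokine, had 3 woodrat reads in all, each in woodrat 1, and 33 lab rat reads, a pooled ratio of 11.8 (95% counting interval 3.71 to 60.3). Its log2 fold change of -3.33 ± 0.98 had an FDR of 0.0271, and of 0.0071 without woodrat 1. Ccl7 had 8 woodrat reads, also all in woodrat 1, against 42 lab rat reads (-2.35 ± 1.07, FDR 0.112, and 0.00436 without woodrat 1).

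Of 14 chemokine receptor genes, 10 were below the filter. Cxcr4, the receptor of Cxcl12 on leukocytes, had 0.39, 0.277 and 0.355 CPM in woodrats and 2.98, 1.82 and 2.69 CPM in lab rats (-2.82 ± 0.50, FDR 0.00371). Woodrats were at or under the floor and lab rats above it, and the FDR was between 0.01 and 0.0192 without woodrat 2 or any 1 lab rat. Ccrl2, an atypical receptor that binds chemerin, gave -3.22 ± 0.82 with an FDR of 0.0152 from 3 woodrat and 28 lab rat reads (95% counting interval of the pooled ratio 3.10 to 51.6). Ccr10 gave -1.68 (FDR 0.0857). Cxcr2, a neutrophil receptor, had 1.76, 6.10 and 11.4 CPM in woodrats and 15.0, 20.3 and 6.16 CPM in lab rats, with overlap (-1.09, FDR 0.201).

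Further ligands and soluble inhibitors lower in woodrats were Tnfsf13b, Il18bp and Il34. Tnfsf13b (BAFF), a survival factor for B cells, had 0, 0.971 and 1.18 CPM in woodrats and 9.42, 8.59 and 15.4 CPM in lab rats (-3.80 ± 0.67, FDR 0.0036). Il18bp, a secreted protein that neutralizes IL-18, had 0.39, 0.416 and 0.118 CPM in woodrats and 3.47, 4.13 and 5.19 CPM in lab rats (-3.77 ± 0.55, FDR 0.0017). Il18 itself overlapped between the species. Il34, a second ligand of the macrophage receptor Csf1r, had 4.10, 4.02 and 2.48 CPM in woodrats and 13.0, 10.9 and 15.2 CPM in lab rats (-1.89 ± 0.34, FDR 0.00404). No woodrat reached the lowest lab rat for any of these. The FDR was above 0.01 without woodrat 2 or any 1 lab rat for Tnfsf13b (0.0105 to 0.0166) and Il34 (0.0125 to 0.0171).

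Of 8 tested TNF receptors, only Tnfrsf1b passed (12.5%, against 20.0% of all tested genes). Tnfrsf1b (TNF receptor 2), found mainly on leukocytes and endothelium, had 6.83, 7.49 and 5.09 CPM in woodrats and 1.74, 1.32 and 1.35 CPM in lab rats (2.11 ± 0.38, FDR 0.00391). The species did not overlap, and the FDR was between 0.0125 and 0.0203 without woodrat 2 or any 1 lab rat. Tnfrsf1a (TNF receptor 1), which most cells carry, had 48.6, 58.4 and 53.2 CPM in woodrats and 79.1, 87.4 and 92.7 CPM in lab rats, a step of -0.69 ± 0.21 with an FDR of 0.0316. Tnf itself had at most 1 read in any animal. Tnfrsf12a, the receptor of Tnfsf12 (TWEAK), had 48.2, 12.6 and 8.64 CPM in woodrats and 2.73, 4.30 and 6.35 CPM in lab rats (2.38 ± 0.67, FDR 0.0233). Without woodrat 3 its FDR was 0.0066, and Tnfsf12 gave 0.91 (FDR 0.079). Tnfrsf11b (osteoprotegerin, a decoy for RANKL) gave 1.62 ± 0.52 with an FDR of 0.0365.

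The samples differed in their general leukocyte markers, while markers of single leukocyte types were mixed. All 7 general leukocyte markers listed (Ptprc, Cd53, Laptm5, Coro1a, Cd48, Itgb2 and Lcp1) were tested, none overlapped, and 6 of 7 passed, each higher in lab rats, with log2 fold changes from -5.30 for Cd48 to -3.46 for Ptprc. Cd53 gave -2.38 (FDR 0.039). The summed CPM of the 7 was 4.68, 4.71 and 6.39 in woodrats and 93.2, 71.2 and 69.5 in lab rats. Among macrophage markers Csf1r, Adgre1 and Cd14 passed and were lower in woodrats. Mrc1 gave -2.39 without overlap and did not pass (FDR 0.0203), whereas Cd68 and Cd163 gave -0.09 and 0.29. Among T cell markers Cd2 passed and was higher in lab rats, and Cd3g gave -3.61 without overlap and did not pass (FDR 0.0172). No neutrophil marker was tested: S100a9 had 45, 6 and 7 woodrat reads and 5, 2 and 2 lab rat reads, and Csf3r, S100a8 and Mpo had at most 6 reads in any animal. Of 2 mast cell markers tested, neither passed (Cpa3 -3.05, FDR 0.0273, and Kit -0.12, FDR 0.929). The B cell genes pointed both ways, with Ighm at 2 reads in each woodrat and 1558, 939 and 1370 reads in the lab rats, while Jchain had 4, 16 and 10 woodrat reads and 2, 1 and 0 lab rat reads and Cd79a had 5, 11 and 3 against 2, 0 and 0.

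Reads were also set against Coro1a, the general leukocyte marker with the most woodrat reads (12, 12 and 14 against 181, 117 and 132 in lab rats). The macrophage markers Cd68, Cd163 and Csf1r had more woodrat reads in all, with log2 fold changes of -0.09, 0.29 and -3.02. The order of the species on such a scale can therefore depend on the marker chosen, and only Coro1a was used. Since Coro1a itself had a log2 fold change of -3.57, this scale raises every gene in woodrats by that amount and tests nothing about a single member. For every 1000 Coro1a reads, Il1b had 83.3, 83.3 and 0 reads in woodrats and 82.9, 85.5 and 83.3 in lab rats. Tnfsf13b (0, 583 and 714 against 420, 444 and 606) and Il2rg (250, 0 and 143 against 188, 162 and 114) overlapped as well. The other leukocyte-type members called higher in lab rats, Cxcr4 (167, 167 and 214 against 133, 94.0 and 106) and Cxcl16 (1333, 1917 and 1429 against 1177, 838 and 758), were then higher in every woodrat. The woodrat values rest on few reads, and the part of leukocyte content in these results was not tested.

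**Figure D4:**
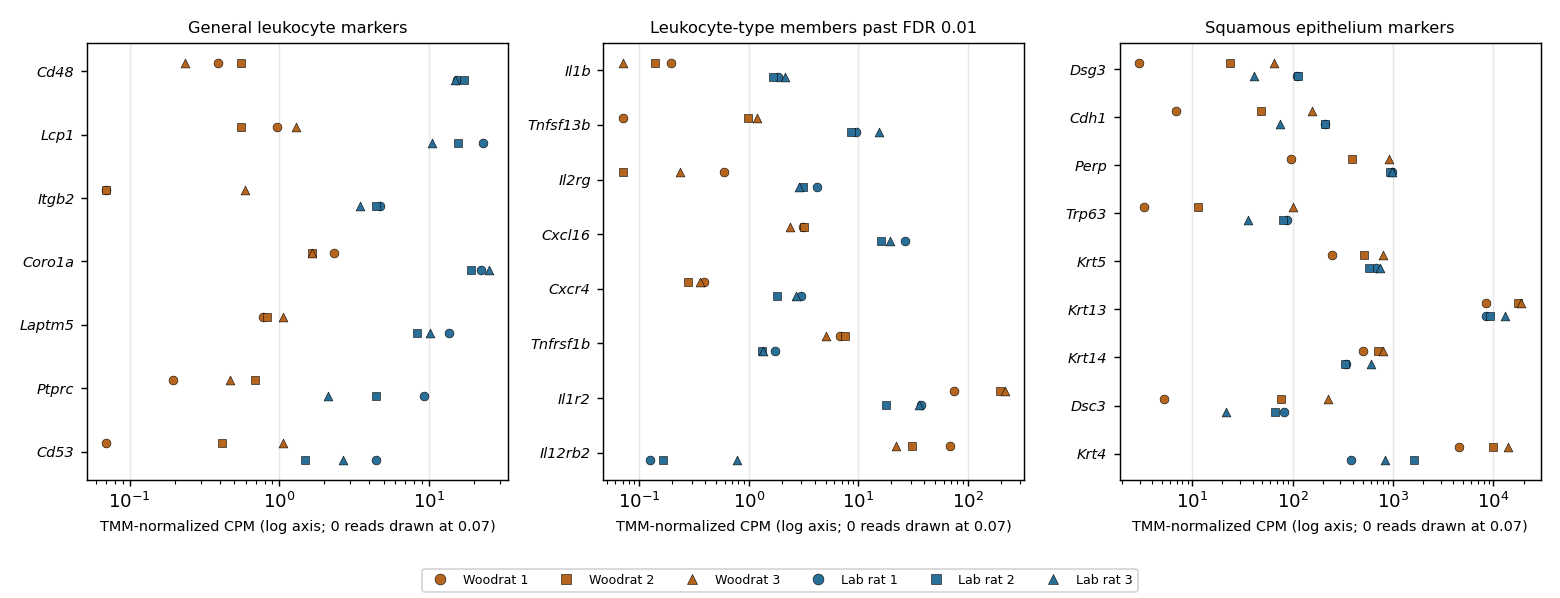
TMM-normalized CPM of each animal on log axes for 7 general leukocyte markers, the leukocyte-type members past FDR 0.01 and 9 squamous epithelium markers. The leukocyte markers and 5 of the 8 members lie higher in lab rats, 3 members lie higher in woodrats, and most epithelial markers overlap with woodrat 1 at the low end.

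The squamous epithelium was present in every sample. Its 9 listed markers were all tested, and 1 of them passed (Krt4, 3.34, higher in woodrats). Their summed CPM was 13769, 29298 and 36202 in woodrats and 11268, 13111 and 16454 in lab rats, most of it from Krt4 and Krt13. The median log2 fold change of the 9 was -0.36, with 5 negative and 4 positive. Within the woodrats, Cdh1 had 6.83, 48.4 and 157 CPM in animals 1, 2 and 3, and the smooth muscle markers ran the other way, at 104344, 50444 and 32067 CPM in sum against 8902, 14972 and 16428 in the lab rats. Epithelial-type members followed that order: woodrat 1 was the lowest woodrat for 12 of 16 and woodrat 3 the highest for 14 of 16, where 39.1% and 37.9% of all tested genes had that place. For every 1000 reads of the basal keratin Krt5, Il20ra had 3.13, 6.77 and 7.01 reads in woodrats and 94.8, 113 and 84.8 in lab rats, and Il33 had 0, 0.271 and 1.04 against 42.3, 31.8 and 20.8. Il17re (3.13, 3.25 and 1.64 against 15.6, 23.2 and 22.9) also stayed apart on this scale, and Il17rc (236, 102 and 73.8 against 236, 282 and 354) did so with woodrat 1 just below the lowest lab rat. Il1f5 (293, 145 and 195 against 253, 200 and 174) overlapped. Krt5 is 1 of the 9 markers, and its CPM in woodrats 1, 2 and 3 (249, 512 and 793) varied less than that of Cdh1. The order of the species on the scale of another marker was not tested. Of the glandular stomach genes, Pgc and Gkn1 were at 0 or 1 read, and Gkn2 had 9, 0 and 1 woodrat reads and none in lab rats. Muc5ac had 17, 12 and 33 woodrat reads and none in lab rats, and passed (7.32, FDR 0.00305). Atp4a was read in every animal and did not pass (FDR 0.216). Endothelial markers did not pass, and of 6 fibroblast markers only Dcn did (-1.41).

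Other genes of cytokine signalling were taken from a list of 94 genes in the files, of which 81 were tested and 15 (18.5%) passed, 6 higher in woodrats and 9 in lab rats, a share near the 20.0% of all tested genes. The count was 10 without woodrat 1, 3 without woodrat 2, and 4, 5 and 9 without lab rats 1, 2 and 3. Among ligands outside the symbol rule, 2 of 10 passed: Cx3cl1 (-3.86), a membrane-bound chemokine, and the gp130 cytokine Ctf1 (-1.98). Among receptors, 4 of 17 passed: Tgfbr1 (2.93) and Ngfr (3.89) were higher in woodrats, and Csf1r (-3.02), the receptor of Il34, and the chemokine scavenger Ackr2 (-2.21) in lab rats.

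Downstream of the receptors, 4 of 21 genes (19.0%) of the JAK-STAT and SOCS group passed. Jak1 (1.61), Jak2 (1.61) and the feedback inhibitor Socs2 (2.81) were higher in woodrats. Jak3 (-2.61), the kinase that binds the Il2rg chain, was higher in lab rats. Of 33 NF-kB and adaptor genes, 5 passed (15.2%): the kinase Map3k7 (1.85) in woodrats, and Traf1 (-5.46), Nfkbie (-2.48), Traf4 (-2.16) and Casp1 (-1.30), the protease that matures IL-1 beta and IL-18, in lab rats. The NF-kB subunit gene Rela (0.14, FDR 0.639) and the inhibitor Nfkbia (-0.02, FDR 0.937) overlapped, as did Traf3ip2, the adaptor of IL-17 receptors (-0.04, FDR 0.914).

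The 50 untested members held few reads, and no test was made on them. In 14 of them no animal had 3 reads. In 11 every lab rat reached 3 reads, and in 3 every woodrat did. The 11 include Ccl20, the keratinocyte chemokine for Ccr6, at 1, 1 and 0 woodrat reads and 22, 4 and 10 lab rat reads, Ccl24, a macrophage chemokine for eosinophils, at 0, 0 and 2 against 15, 7 and 5, and Il2rb, a chain of the IL-2 and IL-15 receptors, at 1, 0 and 1 against 14, 5 and 3. The lymphatic and lymph node chemokine Ccl21a had 14, 5 and 7 woodrat reads and 0, 1 and 1 lab rat reads. Its near-identical copies make its count uncertain. Il21r, a lymphocyte receptor, had the most reads of this group in 1 animal, 57 in woodrat 1, against 1 and 3 in the other woodrats and 13, 1 and 3 in lab rats.

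In all, 42 of the 110 members had 3 or more reads in every animal. Of the untested members, 27 had more reads in the 3 lab rats together and 19 in the 3 woodrats, 4 were equal, and 10 had no lab rat reads. None was without woodrat reads, since the files list no such gene.

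**Figure D5:**
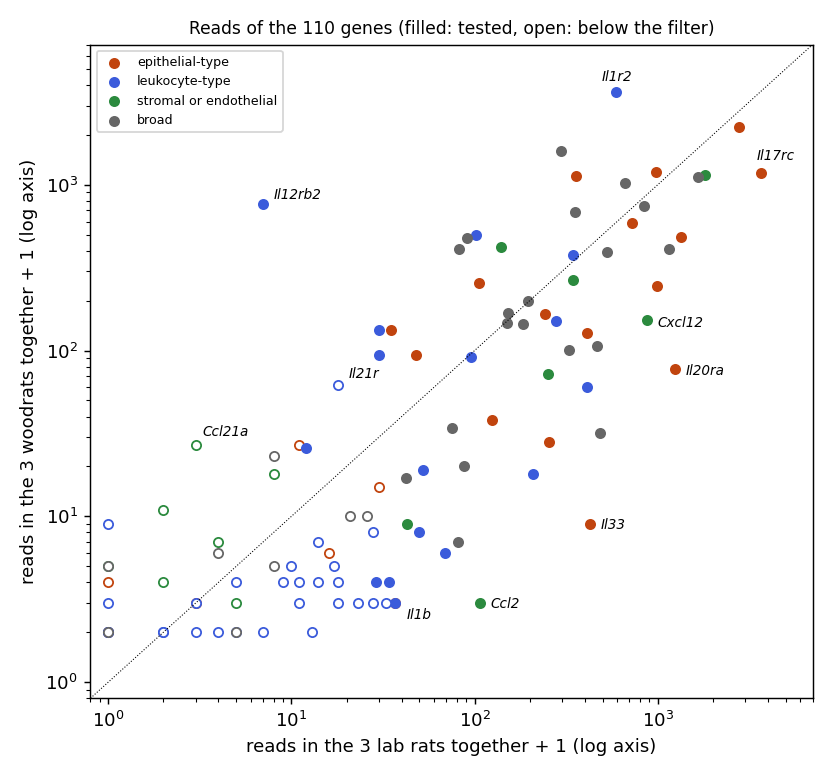
Reads of all 110 members, summed over the 3 woodrats (vertical) and the 3 lab rats (horizontal) on log axes of reads plus 1, coloured by usual source, with filled points for the 60 tested genes and open points for the 50 below the filter. Most leukocyte-type genes sit at the low end, where 28 of 45 were not tested.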

How the data were processed

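Foregut RNA of 3 woodrats and 3 lab rats was sequenced from stranded, poly(A)-selected libraries. After trimming (Trimmomatic) and merging of overlapping mates (FLASH), the authors mapped the reads onto coding transcripts of the mouse (GENCODE M7; the submitters' notes list mm9) using cross_match, and deposited raw counts of uniquely assigned, correct-strand reads per mouse gene. Genes with many multiple alignments had been removed, and divergence from mouse can lower the counts of either species. The study found more substitutions per read in woodrats than in lab rats, and judged that mapping had no global bias. The part of divergence in the low woodrat counts of single genes was not tested. Groups came from the sample labels. The members and gene lists were chosen with earlier results of these data known.

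The fit used genes that reached 1 CPM in 3 or more animals. Counts were TMM-normalized and compared between species with the quasi-likelihood F-test of edgeR 4.0.16 (method used before edgeR 4; R 4.3.3), with Benjamini-Hochberg adjustment over 12603 genes and a threshold of FDR 0.01. Standard errors were taken from the log2 fold change and its F value. Pooled reads were compared over TMM-scaled library sizes, with exact 95% intervals that cover counting error only. Named genes are the members past the threshold, the 10 with the highest mean CPM, partner chains and ligands of named genes, and members below the filter by their reads. Other genes named were chosen from the lists after their values were seen. Alternatives were other filters, scalings and thresholds, DESeq2 1.42.0, the newer edgeR method, the replicate number as a block, and each animal left out. Within species, counts differed by at least 10.1 chi-square per degree of freedom, so no library was a duplicate. No sequence or position is given, since no reference was used here.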

Additional observations from a re-analysis of the deposited data

How the results depend on the processing

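The 21 members called (5 higher in woodrats, 16 in lab rats) ranged from 9 to 24 when each animal was left out in turn, with 1 to 6 higher in woodrats and 8 to 19 in lab rats. The other signalling genes called, 15, ranged from 3 to 15. The genes tested were kept in these fits. At an FDR below 0.05, 32 members (8 higher in woodrats) and 31 signalling genes passed. The share of all tested genes below 0.05 is not given here, so whether these counts exceed it cannot be told. The signalling count was 9 with a filter at 5 CPM, 9 with total counts only and 26 with DESeq2. The member count was 16 (of 42 tested) with a filter at 5 CPM (19.3% of all genes called), 20 with total counts only, where Il13ra1 lost its call (14.4%), 28 with DESeq2 (31.1%), 22 with the newer edgeR method (20.6%), and 21 with no filter, with reads required in both species or with DESeq2 size factors. Scaling choices moved the median of all genes by less than 0.1 on the log2 scale.

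Both species carry replicate numbers 1 to 3 in the labels. Deviations of same-numbered animals correlated at -0.29, -0.09 and -0.28, so same-numbered animals did not deviate together. With 3 animals per species, centred within each species, such correlations cannot exclude that the numbers pair the animals. With the replicate number as a block, 7 members were called (1 higher in woodrats, 6 in lab rats) and 3 signalling genes, where 5.68% of all genes were called.

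Directions reversed only for members that had not passed. The log2 fold change was -0.17 for Ifnar2, 0.14 for Il1rap and -0.24 for Tnfrsf11a without woodrat 1, 0.07 for Il10rb without woodrat 2, -0.46 for Il18 and -0.33 for Il1a without woodrat 3, 0.15 for Il10rb without lab rat 1, 0.06 for Il10rb and -0.21 for Il18 without lab rat 2, -0.11 for Tnfrsf11a without lab rat 3, and 0.0096 for Il10rb with the replicate block. Over all fits without 1 animal, these genes reached up to 0.26 (Ifnar2), 0.43 (Il18), 2.69 (Il1a) and 0.38 (Tnfrsf11a), and down to -0.25 (Il10rb) and -0.57 (Il1rap). The cause was not tested. Called in every leave-one-out fit were Ccl2, Cxcl12, Cxcl16, Ifngr1, Il12rb2, Il17re, Il18bp, Il20ra and Il33. Of the 45 leukocyte-type genes, 28 were below the filter and have no test.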
